A study of Drosophila melanogaster with 3 samples.

Results

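The genes described here are the 93 annotated genes for proteins of the cytosolic ribosome in Drosophila melanogaster, among 17896 annotated genes, of which 13945 are protein-coding. They were chosen by symbol from the gene annotation, without the use of any measured value: protein-coding genes whose symbol begins with RpL or RpS and a digit, or with RpLP, together with sta, which encodes the small-subunit protein SA. The set holds 51 genes of the large subunit, 39 of the small subunit and the 3 genes of the stalk (RpLP0, RpLP1 and RpLP2). The large-subunit count includes several genes with "-like" symbols, which may not all encode proteins of the ribosome. For each gene the strongest region of the authors' pooled list and a summit no more than 500 bp from a transcription start site (TSS) of the gene was taken as its candidate region. If that region was also in the authors' optimal list, the gene was said to have an optimal peak.

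The study mapped binding of the transcription factor Hsf by chromatin immunoprecipitation and sequencing with an antibody against GFP. The 3 samples are labelled biological replicates 1, 2 and 3 of a single group: whole embryos aged 0 to 24 h, both sexes pooled, of a transgenic line in which GFP is joined to the C terminus of Hsf. The labels named no heat treatment, no untagged strain and no driver for the transgene. The deposited lists therefore describe every tissue and stage of the embryo at once, and stronger binding in some cells cannot be told apart from binding in more cells. No second group was compared, so every value below is a description set beside the other genes of the same lists, and no test was made.

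The pooled list held 30000 candidate regions, of which 5756 were optimal peaks. The authors set this list by the irreproducible discovery rate (IDR), which compares ranks between replicates. The optimal peaks were exactly the 5756 regions of the pooled list with the highest signal. An optimal peak is thus a cut on pooled signal and does not show that the single region ranked alike in every replicate. The share of genes with an optimal peak and their signal are not separate results. The replicate lists held 30000, 28225 and 30000 regions. Signal is the authors' own value for each region, on its own scale in each list, and was used only for ranks and description within a list, where rank 1 is the highest signal. The optimal peaks had signals from 97.0 to 3523, with a median of 166.5. No read counts were given per region, so the depth behind each value is unknown, and control chromatin was not analysed here as a measurement of its own, so its part in the signal was not tested. Confidence intervals of shares are 95% Wilson intervals and cover counting error over genes or regions only.

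Each ribosome contains 1 copy of most of these proteins, built around ribosomal RNA into a small subunit that reads the messenger RNA and a large subunit that joins amino acids. Their genes are among the most highly transcribed in growing cells, and loss of 1 copy of many of them gives the Minute phenotype of slow development and thin bristles in the fly. Many of their promoters carry a polypyrimidine initiator (the TCT motif) at the start site in place of the usual initiator, and in the fly the DNA replication-related element (DRE, bound by Dref) and the motif bound by M1BP are known from promoters of this kind. Hsf is best known for activating the chaperone genes after heat, through inverted repeats of GAA called heat shock elements.

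Promoter stretches of 4 genes show what lies around the start sites of strongly bound members, in RefSeq's genome of release 6 (dm6). Each is read 5′ to 3′ on the strand of the gene. It runs from 130 bases before the TSS of the transcript that the annotation marks as canonical to 20 bases from it onwards. The 4 genes are the member with the highest signal and the strongest members with a DRE, an M1BP motif and a polypyrimidine initiator. Capitals mark TATAAAA on either strand in RpS27 (chr3R:25247495-25247644, minus strand), GGTCACACT on the opposite strand in RpL7 (chr2L:10200874-10201023, plus strand), the DRE in RpL28 (chr3L:3222939-3223088, minus strand) and CTTTT in RpL23A (chr3L:1668635-1668784, minus strand).
RpS27: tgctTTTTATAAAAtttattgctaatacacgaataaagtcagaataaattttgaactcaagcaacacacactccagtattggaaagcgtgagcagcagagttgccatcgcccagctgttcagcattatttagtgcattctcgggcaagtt
RpL7: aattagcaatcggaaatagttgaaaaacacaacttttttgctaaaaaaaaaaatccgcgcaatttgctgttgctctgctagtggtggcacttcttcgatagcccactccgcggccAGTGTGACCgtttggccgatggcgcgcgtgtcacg
RpL28: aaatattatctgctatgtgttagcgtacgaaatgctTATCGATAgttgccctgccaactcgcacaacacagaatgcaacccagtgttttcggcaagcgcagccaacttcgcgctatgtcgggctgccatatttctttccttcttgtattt
RpL23A: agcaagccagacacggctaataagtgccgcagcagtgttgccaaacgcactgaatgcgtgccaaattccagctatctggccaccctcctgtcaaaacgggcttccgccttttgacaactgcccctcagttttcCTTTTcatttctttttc
The TATAAAA letters of RpS27 began far upstream of the start site, at −126 and −123 counted from the annotated TSS, and overlapped each other. The M1BP match of RpL7 began at −15, the DRE of RpL28 at −94, and the initiator of RpL23A at position 4, where the TSS is position 1.

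Most ribosomal protein genes carried an Hsf-GFP peak at the promoter. An optimal peak was found at 74 of the 93 genes, or 79.6% (70.3 to 86.5), against 25.9% of all protein-coding genes and 21.8% of all annotated genes called by the same rule. The 74 genes had 74 different regions, so no region was shared between members. A candidate region of any strength was found at 88 members, or 94.6%, against 56.6% of protein-coding genes. Among genes with a candidate, 84.1% of the members (75.05 to 90.3) had an optimal peak, against 42.9% of all genes with a candidate. Of the remaining members, 14 had a candidate below the optimal list and 5 had none.

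The share was high in every replicate taken alone. Among the 5756 strongest regions of each replicate's own list, 72 members (77.4%) were called in replicate 1, 70 (75.3%) in replicate 2 and 79 (84.9%) in replicate 3, a mean of 79.2% ± 5.08 (SD, n = 3). The same rule called 25.7%, 24.9% and 26.4% of protein-coding genes in replicates 1, 2 and 3. In each replicate the members' share thus exceeded the background by far more than the replicates differed among themselves. Of the 74 members with an optimal peak, 64 were within the 5756 strongest regions of all 3 replicates, and 73 had an overlapping region in all 3 lists. The exception was RpL38, a large-subunit gene, whose region ranked 2257 in replicate 2 and 2670 in replicate 3 and had no overlapping region in replicate 1.

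Both subunits and the stalk were covered. Of the large-subunit genes 43 of 51 had an optimal peak (84.3%, 72.0 to 91.8), of the small-subunit genes 28 of 39 (71.8%, 56.2 to 83.5), and of the stalk genes 3 of 3. The intervals of the 2 subunits overlap. The median signal of the optimal regions was 281.3 for the large subunit, 260.1 for the small subunit and 284 for the stalk. Optimal peaks were spread over the chromosome arms, at 14 of 15 members on X, 15 of 19 on 2L, 16 of 21 on 2R, 12 of 14 on 3L, 16 of 23 on 3R and at RpS3A, the single member on chromosome 4.

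The members' regions were stronger than most promoter regions but were not the strongest in the embryo. Over the 74 optimal regions the median pooled signal was 280 (quartiles 177 to 391), against 193.5 (132.5 to 319.8) over the 3534 other protein-coding genes with an optimal peak. With candidates that were not optimal included, the median was 247 for the members and 87.3 for all protein-coding genes. Their median rank in the pooled list was 1281, against 2316 for the other genes. Of the members, 11 were among the 500 strongest regions, 28 among the 1000 strongest, and 58 above the median of the optimal list, and the highest ranked 103.

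**Figure D1:**
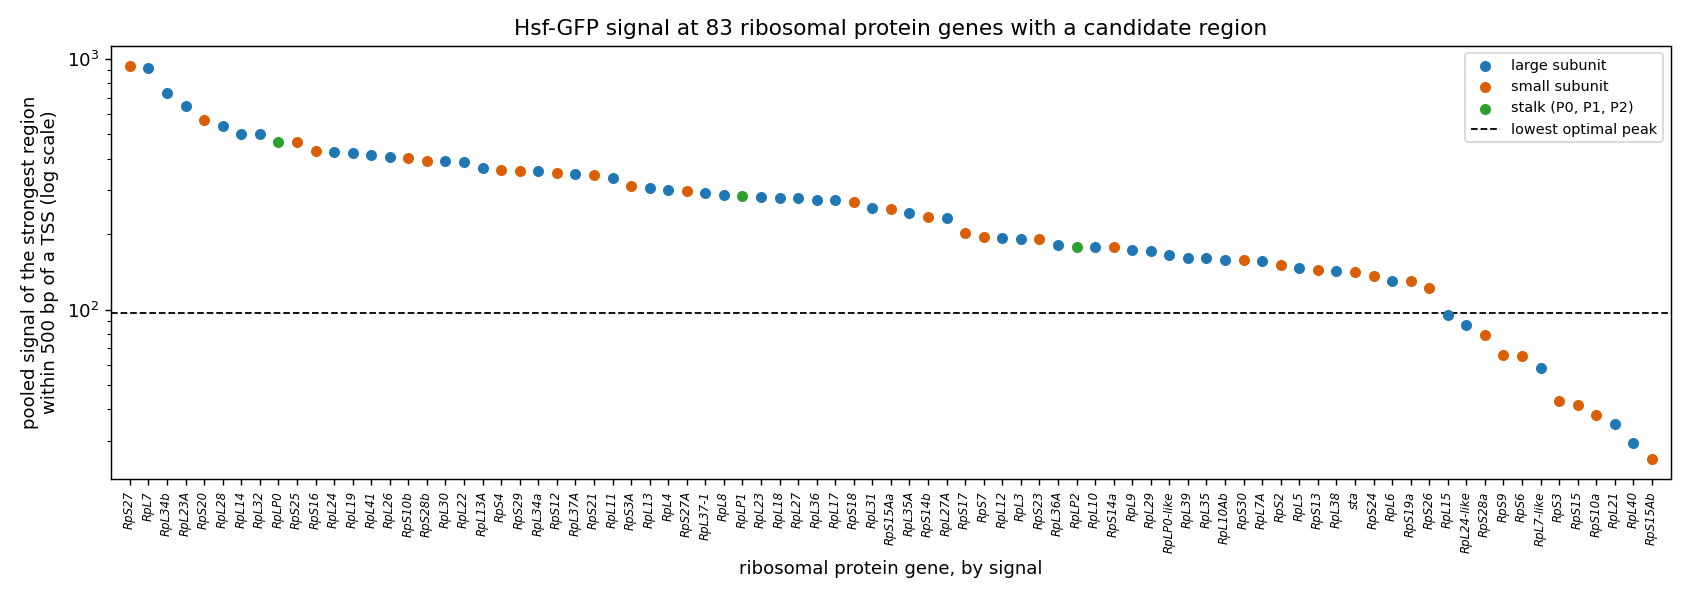
Pooled signal (log axis, the authors' scale) of the strongest region within 500 bp of a TSS for 83 ribosomal protein genes with a candidate, ordered by signal and coloured by subunit. The dashed line is the lowest optimal peak, 97.0; signals run from 939.5 at RpS27 to 25.4 at RpS15Ab, and members of both subunits lie along the whole range.

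The highest signal among the members was that of RpS27, a zinc-binding protein of the small subunit. Its region (chr3R:25247355-25247723) had its summit in intergenic sequence 26 bp upstream of the TSS, with a pooled signal of 939.5, and signals of 289, 301 and 335 in replicates 1, 2 and 3. Its ranks in those lists were 170, 137 and 49, so it was among the 200 strongest regions each time. The Nup37 gene, for a nuclear pore protein, has a start site 118 bp from the same summit.

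The large subunit led the rest of the top of the list. RpL7, whose promoter is printed above, had a region (chr2L:10200874-10201193) with a pooled signal of 915.5 and its summit 24 bp inside the transcribed sequence. Its signals were 382, 250 and 272 and its ranks 86, 211 and 84 in replicates 1, 2 and 3. It was the highest member in replicate 1, while RpL34b was the highest in replicate 2 and RpS27 in replicate 3. RpL34b (chr3R:9401139-9401559) had a pooled signal of 730, replicate signals of 224, 306 and 204 and ranks of 295, 130 and 161. RpL23A, which lies beside the exit of the peptide tunnel and hosts 4 snoRNA genes, had a region at chr3L:1668604-1668910 with a pooled signal of 649, replicate signals of 237, 202 and 203 and ranks of 264, 320 and 165. These 4 genes stayed within the 320 strongest regions of every replicate.

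The other members of the top 12 described here had pooled signals between 428 and 573. RpS20, part of the head of the small subunit, had 573 at chr3R:20821833-20822178 and ranked 455, 227 and 290 in replicates 1, 2 and 3. RpL28 had 542 at chr3L:3222875-3223165 and ranked 446, 529 and 205. Its summit lay 49 bp upstream of its own TSS, and the translation factor gene eIF1 has a start site 332 bp from it. RpL14, with 503 at chr3L:8600793-8601096, ranked 284, 809 and 270. RpL32, whose transcript is widely used as a reference in fly expression work, had 501.5 at chr3R:30046098-30046481 and ranked 389, 434 and 443, the steadiest ranks of the 12. RpLP0, the base of the stalk that recruits elongation factors, had 466 at chr3L:22075942-22076178 and ranked 509, 620 and 353. The list ended with 2 small-subunit genes. RpS25 had 464 at chr3R:11216210-11216455, with ranks of 421, 888 and 329, and RpS16 had 428 at chr2R:22605914-22606188, with ranks of 592, 834 and 422. All 12 ranked 888 or better in each replicate.

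The rest of the stalk was also bound. RpLP1 had a pooled signal of 284, with ranks of 743, 1781 and 1830 in replicates 1, 2 and 3, and RpLP2 had 178, with ranks of 2080, 5648 and 2108. RpLP0-like, whose yeast relative acts in assembly of the large subunit, had 165. Of the genes for the 2 proteins that bind 5S ribosomal RNA, RpL11 had 336 and RpL5 had 147. RpS12, which in the fly takes part in the elimination of slow-growing cells, had 351, and RpL3, which reaches into the catalytic centre, had 191. The protein fused to ubiquitin in the small subunit, RpS27A, had an optimal peak with a signal of 297, while RpL40, the fusion protein of the large subunit, did not. The gene sta had 141, with ranks of 2187, 4661 and 7776.

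Ranks within a replicate followed those of the pool, with replicate 2 set apart from the other two. For the 74 members the median rank was 1449, 1772 and 974 in replicates 1, 2 and 3, a mean of 1398 ± 402 (SD, n = 3), against 2544, 2266 and 2268 for the other genes. The members' median was thus nearer the top in 3 of 3 lists. Of the 73 members with a region in every list, 45 had their weakest rank in replicate 2, 24 in replicate 1 and 4 in replicate 3. Across these members Spearman's rho of the signals was 0.711 between replicates 1 and 2, 0.849 between 1 and 3 and, over 74 members, 0.825 between 2 and 3. For the other genes the 3 values were 0.756, 0.778 and 0.832. Genes are not independent replicates and each list carries the level of its own library, so these values are descriptions only.

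**Figure D2:**
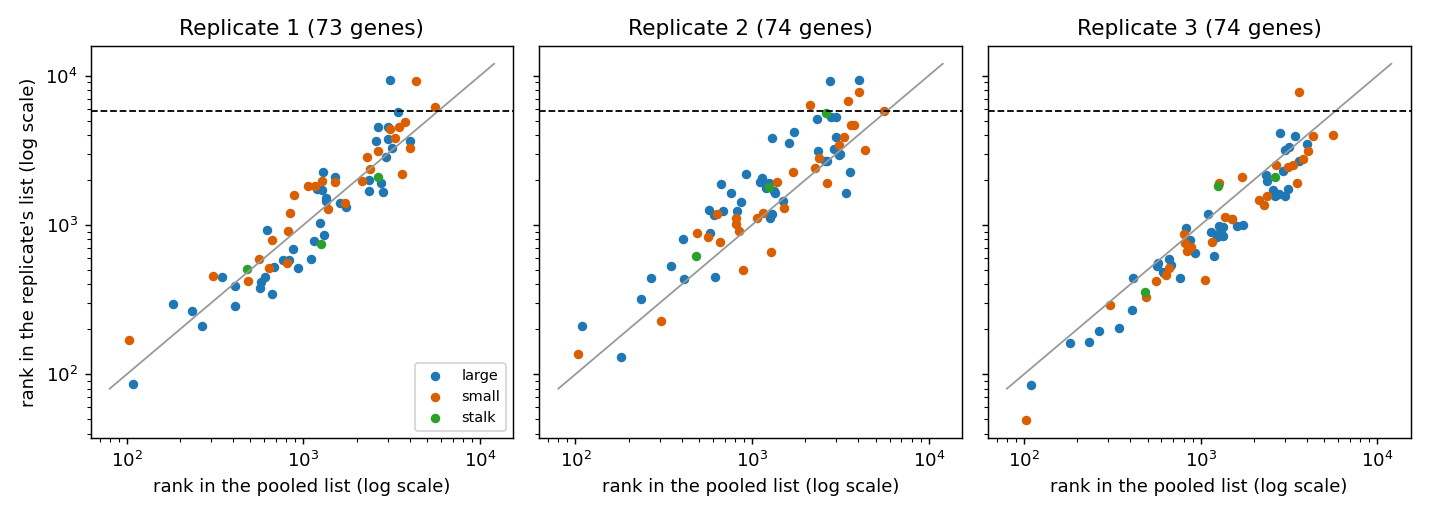
Rank of each optimal member's region in replicates 1, 2 and 3 (log axes, 1 panel each) against its rank in the pooled list, coloured by subunit. The grey line marks equal ranks and the dashed line rank 5756; points in the replicate 2 panel lie mostly above the line, where the median rank is 1772 against 1281 in the pool.

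The members whose ranks differed most between replicates were 4 large-subunit genes. RpL9 ranked 1898, 9267 and 1615 in replicates 1, 2 and 3, so its weakest rank was 5.74 times its strongest. RpL30 ranked 342, 1891 and 595, and RpL27 ranked 853, 3821 and 879. These 3 were lowest in replicate 2. RpL10Ab instead ranked 9396, 2942 and 1751, and was lowest in replicate 1.

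Summits at ribosomal protein genes lay closer to the start site than at other genes. The median offset from the nearest TSS of the gene was −39 bp (quartiles −72.5 to −12.5, negative upstream), against −122 bp (−215 to −53) at the 3534 other protein-coding genes with an optimal peak. Within 100 bp of the TSS lay 63 of the 74 members' summits, or 85.1%, against 37.6% of the others. Upstream of the TSS lay 62 summits, and 12 lay at it or after it. By annotation, 53 summits were intergenic, 19 were in the member's own gene and 2 were in another gene.

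The position held in each replicate's own list. The members' median offset was −36, −50 and −33 bp in replicates 1, 2 and 3 (mean −39.7 ± 9.07, SD, n = 3), against −121, −131 and −116 bp for the other genes (mean −123 ± 7.64). The difference between the groups was several times the spread between replicates. The share within 100 bp was 84.7%, 78.6% and 81.0% for the members and 37.9%, 33.9% and 39.3% for the others.

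**Figure D3:**
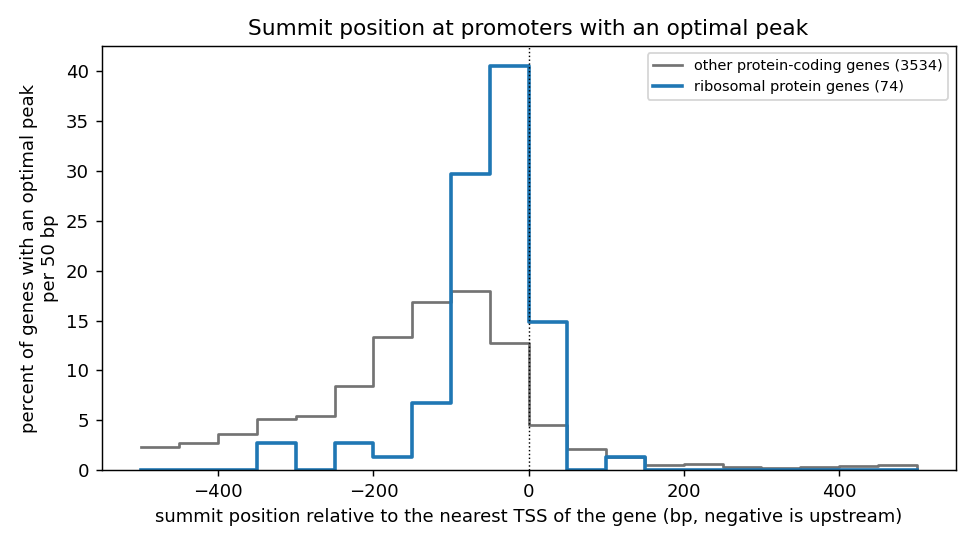
Percent of genes with an optimal peak (y axis, per 50 bp) by the distance in bp of the summit from the nearest TSS of the gene (x axis), for the 74 ribosomal protein genes and 3534 other protein-coding genes. The members' curve peaks just upstream of the start site, with a median of −39 bp, and the other genes' curve is broader and farther upstream, with a median of −122 bp.

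Members lay nearer the start site in every class of rank, with or without a neighbouring start site. For members ranked 1 to 1000 the median offset was −41 bp (28 genes), for ranks 1001 to 3000 it was −44 bp (32 genes) and for weaker optimal peaks −37.5 bp (14 genes). The other genes had −140, −130 and −93 bp in the same rank classes. A start site on the opposite strand of another protein-coding gene lay within 500 bp of the summit at 33 of the 74 members (44.6%) and at 56.9% of the other genes. The median offset was −56 bp for members with such a neighbour and −30 bp for the 41 without, against −124 and −121 bp for the other genes. Measured from the canonical transcript's TSS alone, the medians were −58.5 and −119 bp. The members' regions were also narrower, with a median width of 303 bp against 416 bp, the most common width among the other genes. Of the members' regions 60.8% were below that width, against 36.8% of the others. Most of the members' weaker optimal regions had the width of 416 bp. The members also ranked higher than the other genes, and widths were not compared within rank classes.

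A few summits sat far from the member's start site, and some lay nearer to a neighbour. Among the farthest were those of RpL23 at −321 bp, RpL18 at −319 bp and RpL6 at −223 bp. The RpL6 summit had no start site of another protein-coding gene within 500 bp. At 8 members the summit was nearer to the start site of another protein-coding gene, so the region may be assigned to either. For RpL18 that gene was Neos, 42 bp from the summit, and for RpL23 it was CG13531 at 235 bp. Others were RpS20 (CG17271 at 141 bp), RpL41 (NaCP60E at 87 bp), RpL29 (Sgf29 at 58 bp), RpLP0-like (14-3-3zeta at 14 bp) and RpL13. The RpL13 summit lay 28 bp from the start site of Dref, the gene for the DRE-binding protein, and both genes shared a region with a pooled signal of 305.5. Without these 8 genes 66 members had an optimal peak.

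In most pairs of related genes a single copy had an optimal peak. The set holds 12 pairs of related genes, in which 14 of 24 genes had an optimal peak, against 60 of 69 genes outside the pairs. In 10 pairs a single copy had an optimal peak, in 2 pairs both copies did, and in no pair did both lack it. The lower copy had a weaker candidate in 6 of the 10 pairs and no candidate in 4. The 50-base words around the start site were unique in the genome for 92 of the 93 members and for 92.5% of words at RpS15Ab, so the flanks of the copies can be told apart in sequence.

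The pairs with both copies bound were RpL34 and RpS14. RpL34b had a pooled signal of 730 and RpL34a 355. RpS14a and RpS14b, which lie beside each other on X, had 177 and 234, with separate regions. RpS14a ranked 3149, 1902 and 2505 in replicates 1, 2 and 3 and RpS14b 1410, 2267 and 2090, so their order reversed in replicate 2.

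The pairs with a weak candidate at the lower copy included RpL7 (915.5) with RpL7-like (58.6), RpL24 (425) with RpL24-like (86.9) and RpS28b (393) with RpS28a (79.2). The yeast relatives of RpL7-like and RpL24-like are factors of ribosome assembly. These genes may therefore not be second copies of the ribosomal protein, though they are counted as copies here. RpS15Aa had 252 and RpS15Ab 25.4. RpS10b had 400.5, with ranks of 515, 1177 and 464, while RpS10a had 37.8 and an overlapping region in replicate 1 alone, at rank 26936.

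The 4 pairs with no candidate at the lower copy were RpL22 (386.5) with RpL22-like, RpL37-1 (292) with RpL37-2, RpL10Ab (158) with RpL10Aa and RpS19a (130) with RpS19b. RpL22-like is known from the male germ line and RpS19b from the germ line. The fifth member with no candidate was RpS28-like. Their values are absent from the list of 30000 regions, which says only that no region in it had its summit within 500 bp.

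**Figure D4:**
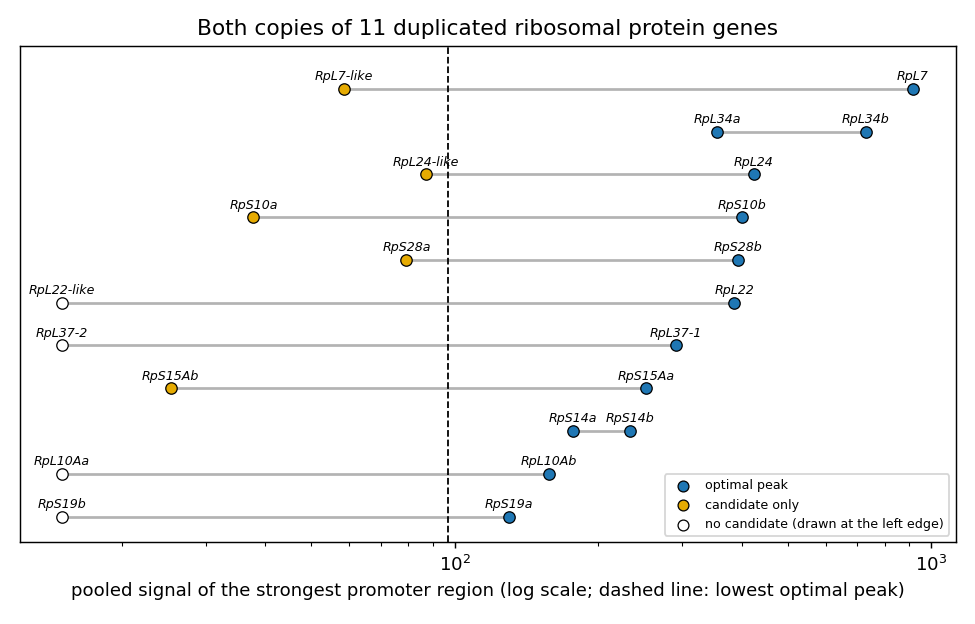
Pooled signal (log axis) of both genes of 11 pairs of related genes in the set, 1 pair per line. Blue is an optimal peak, yellow a weaker candidate and white, at the left edge, no candidate. The dashed line is the lowest optimal peak at 97.0; in 9 pairs a single copy lies to its right, and in 2 pairs both do.

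The promoters of the RpS10 pair are shown because the copies differ both in signal and in a motif. The stretches run as above, with the DRE in capitals, for RpS10b (chrX:19597910-19598059, plus strand) and RpS10a (chr3R:27652630-27652779, plus strand).
RpS10b: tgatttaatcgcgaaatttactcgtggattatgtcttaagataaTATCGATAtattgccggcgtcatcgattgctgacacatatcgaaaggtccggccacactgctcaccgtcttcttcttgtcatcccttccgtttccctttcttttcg
RpS10a: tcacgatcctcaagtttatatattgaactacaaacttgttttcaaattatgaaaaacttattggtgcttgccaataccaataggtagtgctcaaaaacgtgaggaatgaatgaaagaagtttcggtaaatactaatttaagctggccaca
The bound copy RpS10b had a DRE starting at −86 and its partner had none in this window. The pairs did not share this pattern. The promoter was searched from 250 bases before the canonical transcript's TSS to 50 after. Over the 10 pairs with a single bound copy, a DRE lay in the promoter of the bound copy alone in 3, of the other copy alone in 2, of both in 1 and of neither in 4. The 2 with a DRE at the other copy alone were RpL7 and RpL24, where RpL7-like and RpL24-like carried it.

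Outside the pairs 9 members lacked an optimal peak. RpL15, a large-subunit protein, was just below the optimal list at 94.96, with ranks of 10770, 2988 and 8341 in replicates 1, 2 and 3. RpS9 had 65.9 and RpS6, the target of S6 kinase, 65.0, with ranks of 5431 and 4719 in replicates 1 and 3 and no overlapping region in replicate 2. RpS3, a protein at the entry of the messenger RNA channel, had 43.2 and its summit 334 bp downstream in an intron. RpS15 had 41.5 and RpL21 34.9. RpL40 had 29.3, with its summit 473 bp downstream in the coding sequence. RpS28-like had no candidate. Of the 9 genes 6 belong to the small subunit.

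The DRE and the E-box were more frequent at the members' summits than at other bound promoters, beyond the counting intervals, in every window searched. The M1BP motif was so at 100 bp but not at 50 or 250 bp, and the heat shock element was not. Both strands were searched up to 100 bp from each summit, at the 74 members' regions and at 2467 other optimal promoter regions. The DRE, TATCGATA, was found at 23 members' regions, or 31.1% (21.7 to 42.3), against 9.24% (8.16 to 10.4) of the others. The M1BP motif, GGTCACACT with at most 1 mismatch, was found at 18, or 24.3% (15.98 to 35.2), against 12.2% (11.01 to 13.6). The E-box CACGTG was found at 6, or 8.11% (3.77 to 16.6), against 2.43% (1.89 to 3.12). TATAAAA was found at 9, or 12.2% (6.53 to 21.5), against 15.9% (14.5 to 17.3), and the intervals overlap. GAGAGAG was found at 0 of 74, which allows a share of up to 4.05% by the limit of 3 counts in the total and 4.94% by the Wilson bound, against 2.84% of the others.

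The members' summit windows had a median GC content of 41.8% against 35.8%, and lay nearer the start site, and the part of either in these shares was not tested. Windows were also placed on the start site of each gene's canonical transcript, from 250 bases before it to 50 after. There the DRE was found at 28 of 93 members (30.1%), against 8.80% of the other protein-coding genes. Among genes with an optimal peak it was found at 32.4% of the members (22.9 to 43.7) and 15.03% of the others (13.9 to 16.2). The M1BP motif was found at 30 members (32.3%), against 15.1% of the other protein-coding genes. Among genes with an optimal peak its share was 29.7% at the members (20.5 to 40.9) and 22.2% at the others (20.9 to 23.6), and these intervals overlap. The E-box share among genes with an optimal peak was 12.2% at the members (6.53 to 21.5) and 4.95% at the others (4.28 to 5.72). GAGAGAG was found at none of the 93, which allows up to 3.23% by the limit of 3 counts and 3.97% by the Wilson bound, against 6.24% of the other genes.

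**Figure D5:**
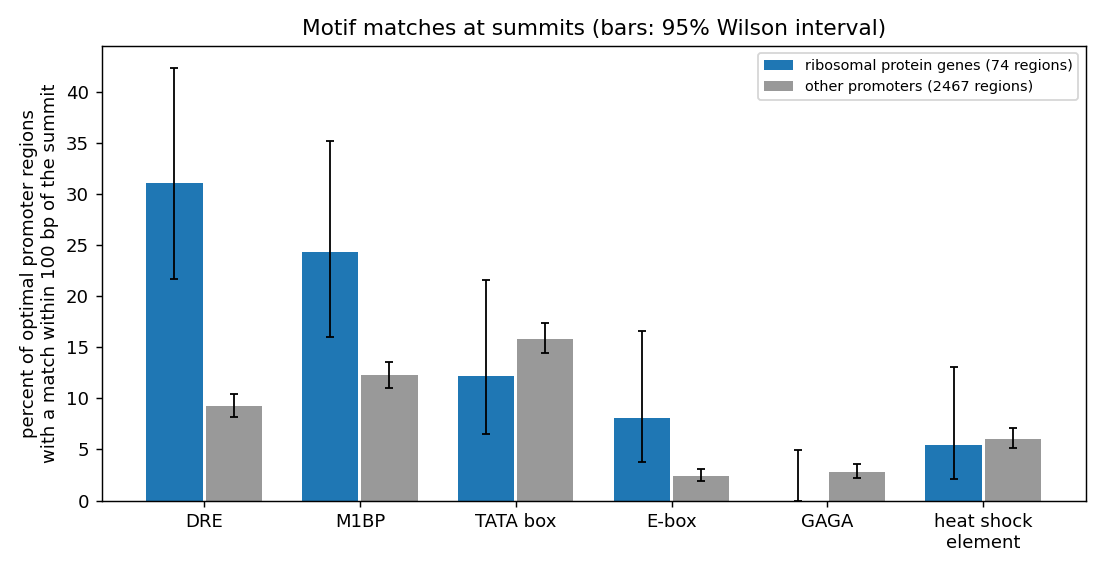
Percent of optimal promoter regions (y axis, from 0) with a match to each motif within 100 bp of the summit, for the 74 regions of ribosomal protein genes and 2467 other regions, with 95% Wilson intervals. The DRE stands at 31.1% against 9.24%, the M1BP motif at 24.3% against 12.2% and the E-box at 8.11% against 2.43%. The heat shock element with at most 1 mismatch is at 5.41% against 6.04%.

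Median signal was close with and without a DRE or an M1BP match. With the rarer motifs the medians were higher but rest on few regions. The median pooled signal was 278 for the 23 members with a DRE and 281 for the 51 without, and 288 for the 18 with an M1BP match and 271 for the 56 without. It was 312 for the 9 with TATAAAA and 279 for the 65 without, and 376 for the 6 with an E-box and 276 for the 68 without. All these medians lie within the quartiles of the 74 regions, 177 to 391. A DRE or an M1BP match was present at 37 of the 74 regions, both at 4, and 11 of the 20 strongest members had one. The median distance of the DRE from the summit was 29.5 bp at the members and 41.5 bp at the other regions.

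The heat shock element, written as GAA and TTC units in alternation with any pair of bases between them and 9 fixed bases in all, was no more frequent at the members than elsewhere. With no mismatch it was found at 0 of 74 regions, against 0.527% of the others. With at most 1 mismatch it was found at 4 regions, or 5.41% (2.12 to 13.1), against 6.04% (5.17 to 7.05). The 4 genes were RpL18, RpS7, RpS30 and RpS16. The matches of the first 3 are given 5′ to 3′ on the strand named, with the bases that match the fixed ones in capitals, since they are the nearest to the element that the members' summits hold: RpL18 at chr3L:7241714-7241726 (minus strand) and chr3L:7241719-7241731 (plus strand), RpS7 at chr3R:30209107-30209119 (minus strand) and RpS30 at chr3R:20850394-20850406 (plus strand) and chr3R:20850399-20850411 (minus strand).
RpL18 minus: GAAccTTCttGcA
RpL18 plus: GAAggTTCggaAA
RpS7 minus: aAAttTTCttGAA
RpS30 plus: tAAagTTCgaGAA
RpS30 minus: GtAtaTTCtcGAA
The RpL18 matches overlap each other, as do those of RpS30. Those of RpL18 belong to the region whose summit is nearer to Neos, and the pooled signals of the 4 genes were 428 for RpS16, 279 for RpL18, 195 for RpS7 and 158 for RpS30, on both sides of the members' median of 280.

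CTTTT near the start site, counted here as the polypyrimidine initiator, marked the gene set rather than the bound members. CTTTT on the gene's strand began within 10 bases of the canonical transcript's TSS at 38 of 93 members, or 40.9% (31.4 to 51.0). The share was 3.91% (3.60 to 4.24) of the other protein-coding genes. Other start sites of a gene were not searched. The C of CTTTT lay on the TSS itself at 0 of the 38 members and within 2 bases of it at 7. A match within 10 bases was found at 30 of the 74 members with an optimal peak (40.5%) and at 8 of the 19 without (42.1%, 23.1 to 63.7). Members with the initiator had an optimal peak in 30 of 38 cases (78.9%), and members without it in 44 of 55 (80%). The median signal of their optimal regions was 260 with it and 318 without.

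Other features of the genes went with small differences. Of the 29 members that host snoRNA genes in their introns 25 had an optimal peak (86.2%, 69.4 to 94.5), against 49 of the other 64 (76.6%, 64.9 to 85.3), and the intervals overlap. Of the 28 members with a DRE in the promoter 24 had one (85.7%), against 50 of the 65 without (76.9%).

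The closest gene groups had fewer optimal peaks and more distant summits. Of 73 genes for mitochondrial ribosomal proteins 40 had an optimal peak (54.8%, 43.4 to 65.7), with a median offset of −135.5 bp, against −39 bp at the cytosolic members. Of 52 translation initiation and elongation factor genes 22 had one (42.3%, 29.9 to 55.8), with a median offset of −79 bp. Of 28 genes of ribosome biogenesis 15 had one (53.6%, 35.8 to 70.5), with a median offset of −97 bp. Among them eIF6, which keeps the subunits apart, had a pooled signal of 1377, above every ribosomal protein gene. The translation factor group was taken by symbol, so eIF6 is counted there too. None of these 3 intervals overlaps with that of the cytosolic set except the last, whose upper bound of 70.5 passes the set's lower bound of 70.3. Among 8 genes for promoter-binding factors, 4 had an optimal peak: Trl (435), Dref (305.5, the region of RpL13), M1BP (195) and Xrp1 (114). Myc, Trf2, Tbp and Hsf itself had weaker candidates, with signals from 38.8 to 68.2.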

How the data were processed

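The measurement was chromatin immunoprecipitation with an anti-GFP antibody, per the labels, in 3 biological replicates of 1 group, sheared by sonication to 200 to 800 bp. The authors deposited region lists for each replicate, for the pool and for the optimal peaks at their IDR threshold. Their signal column is the authors' own value per region, on a separate scale in each list, and the deposited −log10 q value was not used because it reaches a ceiling. The sources used here name neither the aligner nor the peak caller. The lists on build dm6 were used, and those on dm3 were not used here.

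Genes and start sites came from Ensembl release 115 (annotation 6.54, genome release 6), without pseudogenes and transposable elements, on 6 arms, which left out 2 regions of replicate 2. Sequences were read from RefSeq's genome of the same assembly, in which 93 of 93 members had the same gene start and end. A member's candidate was its strongest pooled region with a summit within 500 bp of a TSS, and its region in a replicate was the strongest that overlapped by 1 bp or more. For the count of members in each replicate's 5756 strongest regions, and for the offsets per replicate, the strongest region within 500 bp was sought in that replicate's own list. Of 60 symbols in the comparison lists 2 did not match the annotation, RpL37a and RpL37b, which RefSeq gives as older names of RpL37-1 and RpL37-2, and the current names were used. Members, lists and alternatives were chosen with earlier results of these data known.

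The genes named are the 12 members with the highest signal, every member without an optimal peak, both copies of each pair, and the 4 members each with the largest rank difference between replicates and the farthest summit. Some genes that this rule names are not reported here by name, though they stay in every count and median, and they are left out of the plots of signal by gene and of the pairs. Other genes were picked for their role or their neighbourhood after their values were seen. No paired or group test was possible, so shares have Wilson intervals at 95% and replicate values a mean and SD. The alternatives were other TSS windows and TSS sets, a higher signal, other overlap rules, other motif windows and leaving out each replicate. The pooled and optimal lists were not rebuilt without a replicate. The code was checked on simulated data with Python 3.11.15, numpy 2.4.6, pandas 2.3.3, scipy 1.17.1 and matplotlib 3.10.9. All columns of per-sample values in these lists were mapped to a sample.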

Additional observations from a re-analysis of the deposited data

How the results depend on the processing

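The main values held under the alternatives run. Members with an optimal peak numbered 74, and 71 to 77 with TSS windows of 200 to 1000 bp or other TSS sets. The number was 58 when only optimal peaks above the median signal counted. It was 65 to 69 when a replicate was set aside and the optimal peak also had to overlap the top 5756 of both others. The pooled and optimal lists, made from all 3 replicates, were not rebuilt, so this count could not rise above 74. Candidates numbered 84 to 90. The median offset was −33 to −39 bp for the members kept by that overlap and −37 to −41 bp otherwise. All these offsets use the pooled summits, so they do not show independence from a replicate. With a replicate left out, the mean number of members in the top 5756 was 71 to 75.5 over the remaining replicates, and their mean median rank was 1212 to 1611. It was 1392 when replicate summits had to lie within 100 bp and 1321 with a reciprocal overlap of 50%.

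Motif shares moved with the window. Within 50 bp of the summit the M1BP share was 10.8% (5.58 to 19.9), against 5.31% (4.49 to 6.27) of the other regions, and within 250 bp 35.1% (25.2 to 46.5) against 24.8% (23.1 to 26.5), so the intervals overlap in both. The TATAAAA share was 4.05% within 50 bp, against 8.07%, and 29.7% within 250 bp, against 31.5%. The E-box share within 250 bp was 29.7% (20.5 to 40.9), against 7.21% (6.26 to 8.30). Within 50 bp it was 5.41% (2.12 to 13.1), from 4 regions, against 1.09% (0.753 to 1.59). The DRE share was 23.0% within 50 bp and 32.4% within 250 bp, against 5.03% and 16.4%. GAGAGAG was rarer at the members within 250 bp, at 1.35% (0.239 to 7.27) against 10.7% (9.50 to 11.9), and these intervals do not overlap. Within 50 bp it was at 0 of 74 regions, against 0.892% of the others. The initiator share rose to 64.5% both within 50 bases of the TSS and, in an alternative chosen after seeing the data, when written as CTTT. The same settings gave the other genes 18.9% and 10.6%. No paired analysis was possible because the 3 replicates form 1 group. The unknown depth limits the weakest candidates, whose ranks and presence differed between replicates.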

Other observations

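Among all words of 6 bases within 100 bp of the summit, counted with their reverse complements, the 3 with the largest differences between the members and the other optimal promoter regions were as follows. AAAGAA was found at 63.5% of the members' regions and 23.7% of the others, CGGAAA at 43.2% and 10.8%, and CCGGAA at 36.5% and 4.22%. The GC content and the position of the summits differ between the 2 groups, as given above, and their part in these shares was not tested.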
